A study of Homo sapiens with 6 samples.

Results

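The nuclear pore complex genes were taken from the gene count table by name: every row whose symbol starts with NUP followed by a digit, together with TPR, RANBP2, RAE1, SEH1L, SEC13, AAAS, NDC1, POM121, POM121C and AHCTF1. This gave 33 of the 26334 rows, and 31 of the 33 had enough reads to be tested. The libraries were poly-A selected RNA-seq libraries of MCF10DCIS.com (hereafter MCF10DCIS), a human breast cancer cell line known to form lesions like ductal carcinoma in situ in mice. Cells carrying a neutral control hairpin against luciferase (shLuc, n = 3) were compared with cells in which WDR5 was silenced (shWDR5, n = 3), to ask which transcripts differ when WDR5, a shared subunit of the MLL/SET1 histone methyltransferase complexes, is reduced. The control vector was pRSI-U6-shLuc-UbiC-TagRFP-2A-Puro, and shWDR5 cells received hairpins against WDR5, which the study used as a pool. Both groups were infected, selected with puromycin and grown in DMEM/F12 with horse serum, so the controls also carry the viral vector and the drug selection. All samples came from 1 cell line and nothing in the labels places them in separate infections, so the p-values below measure the spread between these samples, which may be technical.

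Nuclear pore complexes are the channels through the nuclear envelope by which proteins and RNAs pass between nucleus and cytoplasm. Each is built from many copies of a set of nucleoporins: an outer ring on either face (the Y complex), an inner ring at the plane of the membrane, a central channel lined with phenylalanine-glycine repeats, filaments on the cytoplasmic side, a basket on the nuclear side and transmembrane proteins that hold the assembly in the envelope. Importins and exportins carry cargo through the channel, and the small GTPase Ran gives the transport its direction. Cells make new pores in interphase and also rebuild all of them after each division.

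Between 38218108 and 57640167 reads were assigned to genes per library. WDR5 itself stood at 52.6, 48.5 and 51.3 CPM (counts per 1000000 reads assigned to genes, scaled by the trimmed mean of M-values) in shLuc and at 23.4, 24.4 and 20.8 CPM in shWDR5, a log2 fold change of -1.15 (SE 0.0737, adjusted p = 8.67e-07, edgeR quasi-likelihood test with Benjamini-Hochberg adjustment over all genes, as for each adjusted p below). The 8 breast epithelial markers reported here, basal markers together with the general epithelial genes CDH1 and EPCAM, were all present, and their summed level was 6129 to 6345 CPM in shLuc and 8649 to 9230 CPM in shWDR5, with 5 higher (the basal KRT5, KRT6A, KRT14, KRT17 and TP63) and 2 lower (CDH1 and EPCAM). The 11 markers of blood, endothelial, stromal, smooth muscle and liver cells summed to 39.2 to 42.8 CPM in shLuc and 29.4 to 34.9 CPM in shWDR5. CD3E was at 0 in every library, PTPRC, COL1A2 and COL3A1 were near 0, and 5 of the 11 could be tested. Of these 5, COL1A1 and PECAM1 were lower in shWDR5 and 3 were not called. COL1A1 averaged 22.1 CPM in shLuc and 15.6 CPM in shWDR5 (adjusted p = 0.000438). PECAM1 ran from 6.31 to 6.69 CPM in shLuc and reached at most 4.19 CPM in shWDR5 (adjusted p = 5.65e-05). CD68 averaged 11.9 and 11.1 CPM and was not called, nor were PDGFRB and ACTG2, each under 1 CPM. Of the 16117 genes tested, 4821 were lower and 4291 higher in shWDR5, and the median log2 fold change was -0.01.

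Most nuclear pore genes were lower after WDR5 silencing. Of the 31 tested, 22 fell (adjusted p under 0.05), 1 rose and 8 were not called, where 29.9% of all genes tested fell and 26.6% rose. The median log2 fold change over the 31 was -0.37, against -0.01 over all genes tested. The summed level of the 33 genes was 2884, 2910 and 2895 CPM in the shLuc libraries and 2272, 2294 and 2223 CPM in the shWDR5 libraries. The means of 2896 ± 13.2 and 2263 ± 36.4 CPM (SD, n = 3 each) stand in a ratio of 0.781, so the groups lay far outside each other's range. In bulk samples, fewer cells of a kind and less RNA per cell cannot be told apart.

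Most of these genes are expressed well above the detection limit, where smaller differences can be called. Among genes with a mean of at least 10 CPM, 20 of 29 nuclear pore genes fell, against 35.4% of all such genes. At the stricter limit of a log2 fold change of -0.6 or below, 6 of the 31 were lower, against 12.0% of all genes tested. The 6 include NUP62CL, which is not a known pore subunit, and without such names 5 of 29 passed this limit. The 3 shWDR5 libraries lay entirely below the 3 shLuc libraries in 21 of the 31, against 32.4% of all genes, and entirely above them in 2, against 29.9%. In the remaining 8 the groups overlapped.

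**Figure D1:**
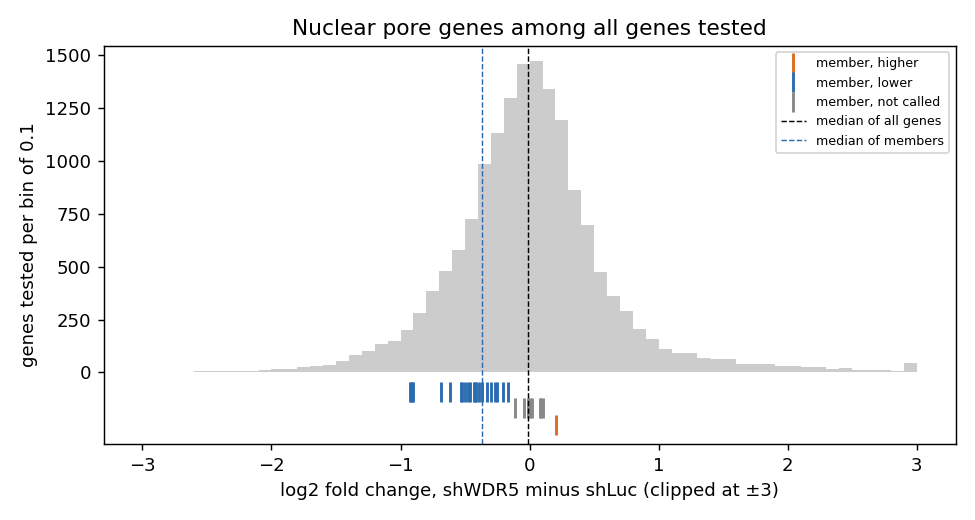
Histogram of the log2 fold change (shWDR5 minus shLuc) of all 16117 genes tested, in bins of 0.1 and clipped at the ends of the axis, with a tick below for each of the 31 nuclear pore genes, coloured by call. Most ticks lie left of 0, and the dashed lines mark the medians of -0.37 for the nuclear pore genes and -0.01 for all genes.

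Cell division markers moved with these genes. All 18 markers in a fixed list of replication and mitosis genes fell, with a median log2 fold change of -0.73. Of all genes tested 29.9% fell, and of those with a mean of at least 10 CPM 35.4%. The summed level of the markers went from 2920 ± 39.7 CPM in shLuc to 1679 ± 38.0 CPM in shWDR5 (SD, n = 3 each). MCM5 and MCM6, subunits of the replicative helicase, had log2 fold changes of -1.24 and -1.11, and MKI67, the Ki-67 antigen of cycling cells, -1.10. The part of this difference in the values of the nuclear pore genes was not tested.

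**Figure D2:**
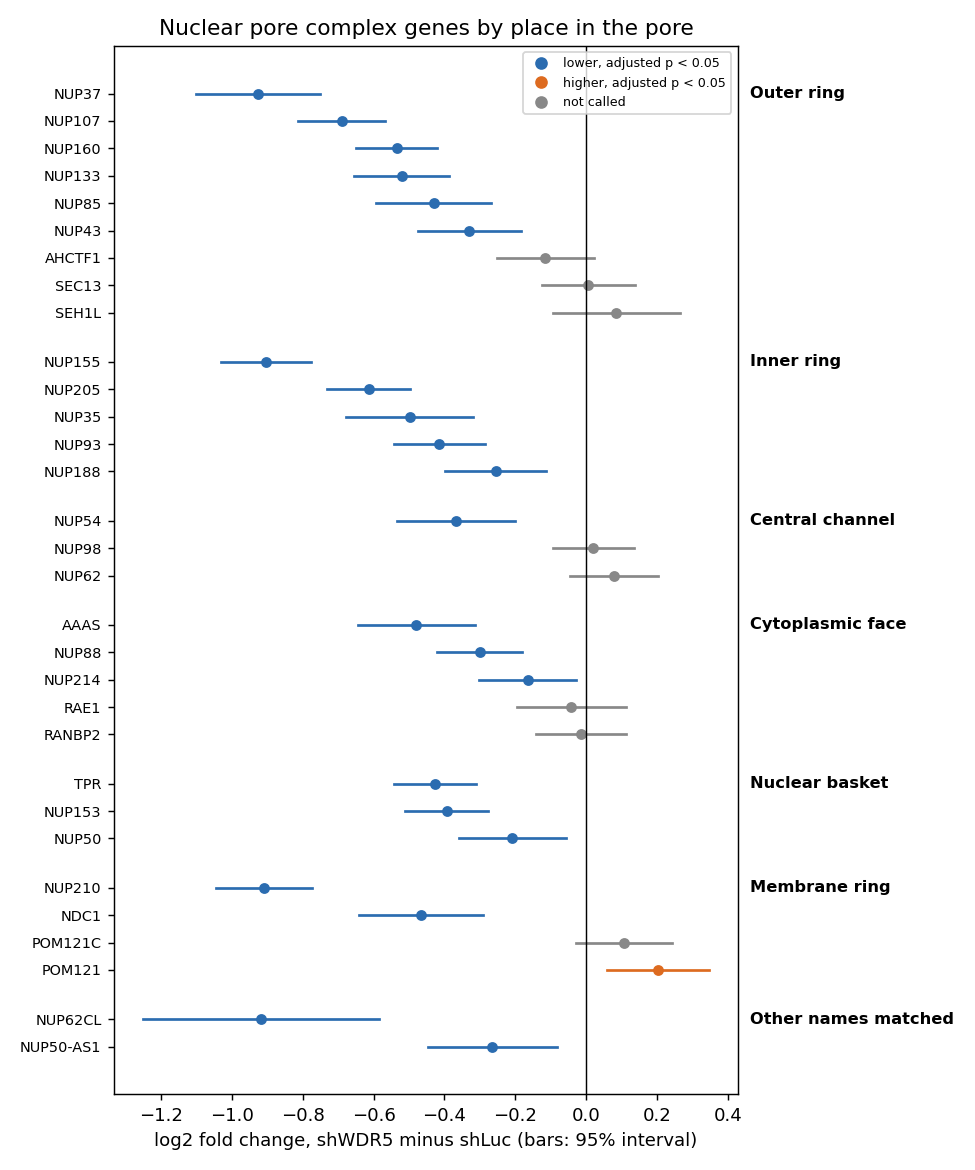
Log2 fold change of each tested nuclear pore gene with its 95% interval, grouped by place in the pore, with colours for genes called lower, higher or not called. All genes of the inner ring and the basket lie left of 0 with intervals that do not reach it, whereas the outer ring and the membrane ring hold both genes that fell and genes that did not.

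The outer ring, or Y complex, is the scaffold that coats the membrane on both faces of the pore. Of its 9 members 6 fell, 3 were not called, and their summed level ran at 0.804 of the shLuc mean. Of all genes tested 29.9% fell. This ring and each other part of the pore below hold too few genes for their own shares to be read against that. NUP37, a small propeller subunit bound to NUP160 on the long arm of the Y (hg19 chr12:102467973-102512361, minus strand), stood at 34.8, 33.3 and 36.8 CPM in shLuc and at 17.8, 20.2 and 17.1 CPM in shWDR5. This was the lowest log2 fold change of all nuclear pore genes, at -0.93 (SE 0.0787, adjusted p = 5.15e-06), and every shWDR5 library was below every shLuc library. NUP107, the subunit that joins the stem to NUP133 (hg19 chr12:69080731-69136473, plus strand), measured 78.7, 78.5 and 83.2 CPM in shLuc and 49.1, 51.1 and 48.9 CPM in shWDR5. Its groups did not overlap either, and its log2 fold change was -0.69 (SE 0.0553, adjusted p = 3.57e-06).

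Further Y complex subunits followed with smaller differences. NUP160, of the long arm, had a log2 fold change of -0.54 and NUP133, which ends the stem, of -0.52. NUP85 and NUP43, on the short arm of the Y, were at -0.43 and -0.33. All 4 passed the test and none had overlapping groups. The other 3 outer ring members did not pass it: AHCTF1 (ELYS), which brings the ring to chromatin, at -0.12, SEC13 at 0.01 and SEH1L at 0.09, each with overlapping groups. The 95% interval of SEC13 was -0.12 to 0.14 and that of SEH1L -0.09 to 0.26. Both proteins also serve outside the pore, SEC13 in the COPII coat of the endoplasmic reticulum and both in the GATOR complex at the lysosome.

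All 5 inner ring members fell, and this ring ran at 0.700 of the shLuc level in sum. NUP155, which links the ring to the membrane (hg19 chr5:37291735-37371228, minus strand), stood at 73.1, 75.2 and 78.4 CPM in shLuc and at 39.5, 41.6 and 40.1 CPM in shWDR5. The log2 fold change was -0.90 (SE 0.0568, adjusted p = 8.12e-07), with shWDR5 libraries close to each other and well under the shLuc libraries. NUP205, one of the large scaffold solenoids (hg19 chr7:135242662-135333499, plus strand), measured 179.1, 173.8 and 173.5 CPM in shLuc and 116.8, 117.6 and 109.6 CPM in shWDR5. Its log2 fold change was -0.61 (SE 0.0527, adjusted p = 5.56e-06), again without overlap. NUP35, a membrane-binding subunit, followed at -0.50, and NUP93, which anchors the channel proteins to the ring, at -0.41. NUP188, the solenoid related to NUP205, moved least at -0.25 (adjusted p = 0.00634).

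**Figure D3:**
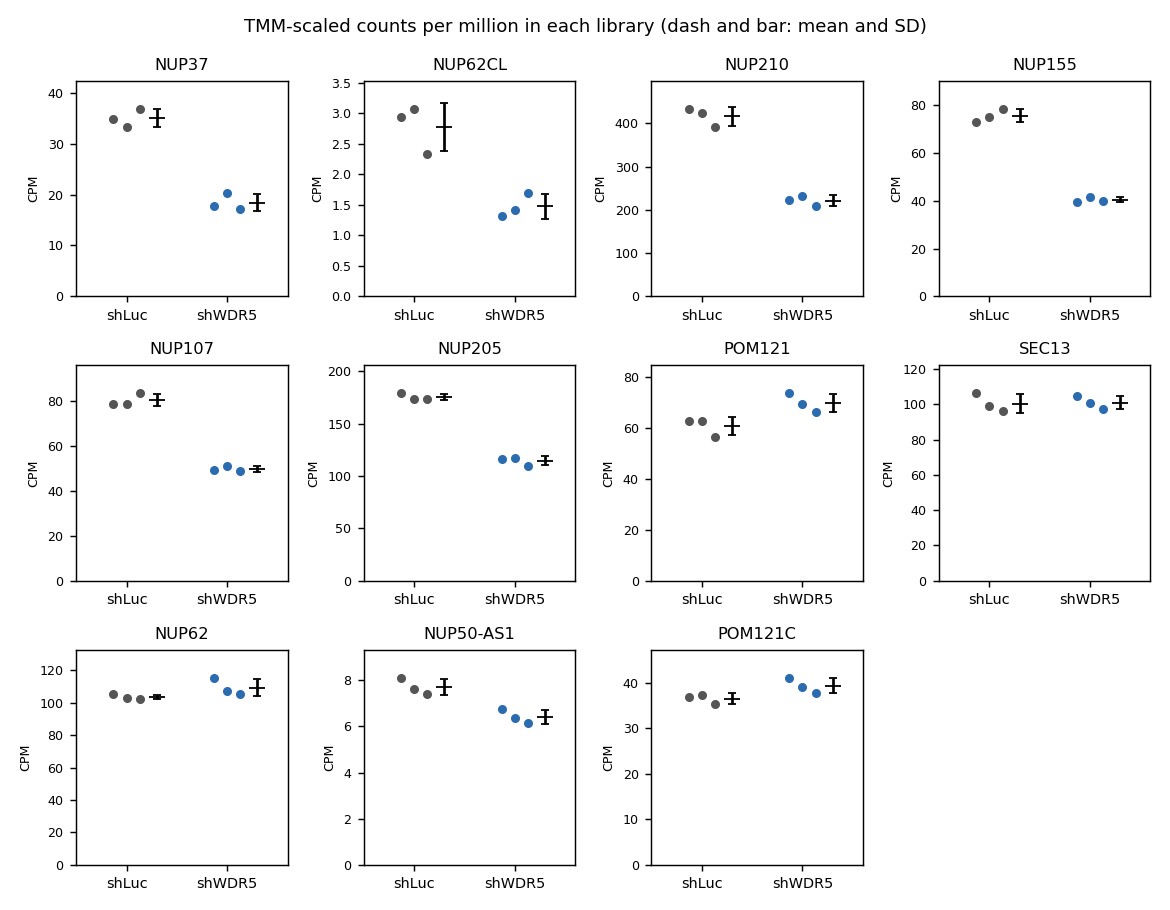
TMM-scaled CPM in each of the 3 shLuc (grey) and 3 shWDR5 (blue) libraries for the 11 nuclear pore genes given by sample, with the mean and SD beside the points and every axis starting at 0. The points of NUP37, NUP210, NUP155, NUP107 and NUP205 are apart between the groups, those of POM121 are slightly higher in shWDR5, and those of SEC13 and NUP62 overlap.

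The membrane ring held the most unequal values. NUP210 (gp210), a transmembrane glycoprotein whose amount is known to vary between tissues (hg19 chr3:13357730-13461819, minus strand), stood at 433.1, 423.1 and 392.5 CPM in shLuc and at 223.3, 232.9 and 208.5 CPM in shWDR5. It fell by 0.91 on the log2 scale (SE 0.0610, adjusted p = 1.16e-06), and no library of one group came near the other. NDC1, which recruits other pore proteins to the membrane, had a log2 fold change of -0.47 and also fell. POM121, a transmembrane protein needed to form pores in interphase (hg19 chr7:72349906-72421979, plus strand), was the one gene taken by the name rule that rose. It measured 62.7, 62.8 and 56.5 CPM in shLuc and 73.5, 69.6 and 66.4 CPM in shWDR5, a log2 fold change of 0.20 (SE 0.0653, adjusted p = 0.0219) with groups that did not overlap. That call was lost without shLuc replicate 3 (adjusted p = 0.0695), shWDR5 replicate 1 (0.0708) or shWDR5 replicate 2 (0.0598), and with scaling by library size alone (0.0680).

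POM121C, a near-identical copy of POM121, stood at 37.0, 37.4 and 35.3 CPM in shLuc and at 41.1, 39.1 and 37.8 CPM in shWDR5. Its log2 fold change was 0.11 (SE 0.0612, adjusted p = 0.162), and although the shWDR5 libraries were all above the shLuc libraries the gene was not called. Reads of the pair may have been split or dropped in counting, so the division between them is uncertain. In addition, 11.6% of the exon bases of POM121 overlap NSUN5P2 on the opposite strand. In sum the membrane ring ran at 0.655 of its shLuc level, mostly through NUP210.

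Within-library ratios of genes of one ring, chosen after the values were seen and therefore without a test, show the unequal change directly. The ratio of NUP210 to POM121 counts was 6.91, 6.73 and 6.95 in the shLuc libraries and 3.04, 3.35 and 3.14 in the shWDR5 libraries. The ratio of NUP37 to SEH1L, both of the outer ring, was 0.666, 0.564 and 0.682 in shLuc and 0.337, 0.350 and 0.265 in shWDR5. A ratio taken within a library does not depend on how the libraries are scaled.

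The 3 central channel genes that the name rule took in ran at 0.992 of the shLuc level in sum. The channel protein NUP58, listed under its older symbol NUPL1, is not in that sum. It averaged 108.1 CPM in shLuc and 91.0 CPM in shWDR5 and was called lower. NUP54, which pairs with NUP62 in the channel, fell by 0.37 on the log2 scale. NUP62 itself measured 105.3, 103.2 and 102.3 CPM in shLuc and 115.5, 107.4 and 105.1 CPM in shWDR5. The log2 fold change of 0.08 did not pass the test (SE 0.0556, adjusted p = 0.259) and the groups overlapped. NUP98, whose transcript also encodes the outer ring protein NUP96, was not called at 0.02, with a 95% interval of -0.09 to 0.14. Counts per gene cannot tell the products of this transcript apart. Exons of NUP62 overlap IL4I1 on the same strand and ATF5 on the other over 9.28% of their bases.

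On the cytoplasmic face 3 of 5 members fell, and the summed level was 0.912 of that in shLuc. NUPL2 (NUP42) and GLE1, also of this face but outside the name rule, are not in that sum and rose by 0.36 and 0.65. AAAS (aladin), which docks at NDC1, had a log2 fold change of -0.48, NUP88 of -0.30 and its partner NUP214 of -0.16. Of the exon bases of NUP88, 13.7% overlap RABEP1 or RPAIN on the opposite strand. NUP214 was close to the threshold (adjusted p = 0.0420) and lost its call when any library but shWDR5 replicate 1 was left out (adjusted p = 0.0640 to 0.166), with upper quartile scaling (0.131), DESeq2 size factors (0.0634) or the filter on the mean over all samples (0.0654), and in the DESeq2 Wald test (0.0838). RANBP2, the large SUMO ligase of the cytoplasmic filaments, was at -0.01 with a 95% interval of -0.14 to 0.11, and RAE1, a messenger RNA export factor, at -0.04. The 7 RGPD genes in the table, which are near-identical partial copies of RANBP2, summed to 0.432 to 1.01 CPM per library. Of these, 1 could be tested and 0 were called.

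All 3 members of the nuclear basket fell, and they summed to 0.775 of the shLuc level. TPR, which forms the basket's struts, had a log2 fold change of -0.43 and NUP153, which ties the basket to the ring, of -0.39. NUP50, a mobile cofactor of importin alpha, was at -0.21 (adjusted p = 0.0237), the one called gene whose groups overlapped. Its call was lost without shLuc replicate 2 (adjusted p = 0.0851), shLuc replicate 3 (0.0826), shWDR5 replicate 1 (0.0696) or shWDR5 replicate 2 (0.0867). For TPR, 7.18% of the exon bases overlap RNU6-72P or PRG4.

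The name rule also took in 4 genes that are not known pore subunits. NUP62CL, a shorter relative of NUP62 (hg19 chrX:106366657-106449670, minus strand), stood at 2.93, 3.07 and 2.33 CPM in shLuc and at 1.32, 1.41 and 1.70 CPM in shWDR5. Those values rest on 61 to 145 reads per library, and the log2 fold change of -0.92 had the widest error of all (SE 0.150, adjusted p = 0.000443) though the groups did not overlap. NUP50-AS1, a non-coding RNA that runs away from NUP50 on the opposite strand (hg19 chr22:45529639-45559662, minus strand), measured 8.12, 7.61 and 7.41 CPM in shLuc and 6.76, 6.37 and 6.15 CPM in shWDR5. Its log2 fold change was -0.26 (SE 0.0816, adjusted p = 0.0178), and the call was lost without shLuc replicate 1 (adjusted p = 0.0759), shWDR5 replicate 2 (0.0567) or shWDR5 replicate 3 (0.0638). NUP210L, a relative of NUP210 known from testis, had 4 to 12 reads per library and the pseudogene NUP210P1 had 0, so neither was tested. Without these 4, 20 of 29 genes fell and 1 rose.

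Levels can be compared between genes only per length, as RPKM, the CPM divided by gene length in kilobases. By the mean over the 6 libraries the 3 highest nuclear pore genes were SEC13 at 46.3 RPKM, NUP210 at 44.2 RPKM and NUP62 at 29.4 RPKM, closely followed by TPR at 29.1 RPKM. In shLuc NUP210 was above SEC13, at 60.1, 58.7 and 54.5 RPKM against 48.9, 45.6 and 44.2 RPKM. In shWDR5 the order turned, with NUP210 at 31.0, 32.3 and 28.9 RPKM and SEC13 at 48.1, 46.3 and 44.8 RPKM. In counts, SEC13 (hg19 chr3:10342613-10362872, minus strand) stood at 106.2, 99.1 and 96.0 CPM in shLuc and at 104.6, 100.6 and 97.4 CPM in shWDR5, so its own groups overlapped. NUP62 was at 28.3 to 29.1 RPKM in shLuc and at 29.1 to 31.9 RPKM in shWDR5, where its range overlapped that of NUP210. The 3 lowest tested genes were NUP62CL at 1.21, NUP50-AS1 at 4.66 and POM121C at 6.47 RPKM. The rank of POM121C is uncertain, because reads it shares with POM121 may have been split or dropped in counting.

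**Figure D4:**
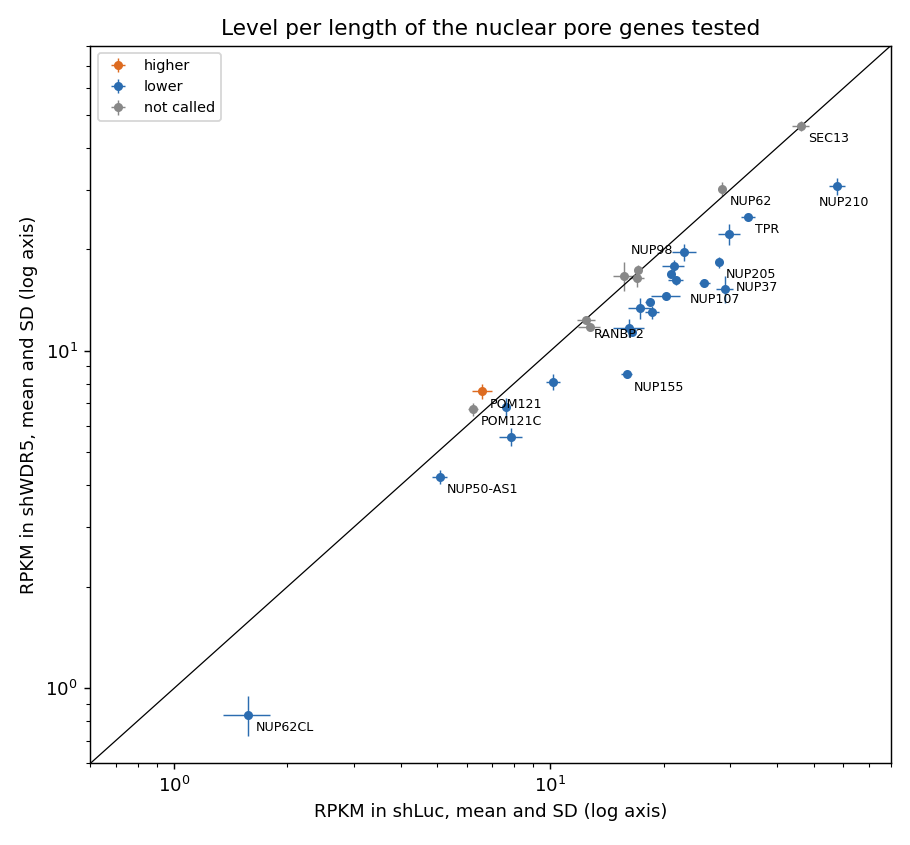
Mean RPKM of each tested nuclear pore gene in shLuc (horizontal, log axis) and shWDR5 (vertical, log axis), with the SD over 3 libraries as bars, the line of equal level, and colours by call. NUP37, NUP62CL, NUP210 and NUP155 lie farthest below the line, while SEC13, NUP62 and NUP98 lie on or near it.

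Promoter sequences are shown for the outer and inner ring genes with the largest falls and, beside them, for NUP98, which was not called. They are the 250 bases before the annotated start from RefSeq (GRCh38.p14), written in the direction of transcription. Of the 33 genes, 29 matched a RefSeq promoter. The following letters were searched on both strands: CCAAT (the CCAAT box), TTTGAA (the CHR element of cell cycle genes), CACGTG (the E-box), GGGCGG (the GC box), CCGGAAG (the ETS core), GCATGCGC (the NRF1 core, which can overlap its own reverse complement) and TTCCCGC (the E2F core, which can overlap a GC box). Capitals mark the matches.
NUP37 (chr12:102120115-102120364, minus strand): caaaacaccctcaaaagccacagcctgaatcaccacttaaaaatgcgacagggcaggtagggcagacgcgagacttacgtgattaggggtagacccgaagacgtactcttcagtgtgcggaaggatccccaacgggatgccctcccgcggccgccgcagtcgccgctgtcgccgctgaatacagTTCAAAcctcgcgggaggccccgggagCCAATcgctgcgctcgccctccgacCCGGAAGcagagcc
NUP107 (chr12:68686728-68686977, plus strand): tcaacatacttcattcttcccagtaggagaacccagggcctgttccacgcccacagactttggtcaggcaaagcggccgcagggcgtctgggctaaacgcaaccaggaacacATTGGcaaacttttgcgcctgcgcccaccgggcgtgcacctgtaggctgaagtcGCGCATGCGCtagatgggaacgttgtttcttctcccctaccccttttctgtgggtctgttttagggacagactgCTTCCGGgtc
NUP155 (chr5:37371107-37371356, minus strand): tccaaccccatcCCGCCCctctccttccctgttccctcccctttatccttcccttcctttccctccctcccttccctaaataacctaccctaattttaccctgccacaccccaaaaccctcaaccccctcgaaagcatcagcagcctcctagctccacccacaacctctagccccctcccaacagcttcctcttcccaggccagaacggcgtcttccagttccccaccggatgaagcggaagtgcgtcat
NUP205 (chr7:135557667-135557916, plus strand): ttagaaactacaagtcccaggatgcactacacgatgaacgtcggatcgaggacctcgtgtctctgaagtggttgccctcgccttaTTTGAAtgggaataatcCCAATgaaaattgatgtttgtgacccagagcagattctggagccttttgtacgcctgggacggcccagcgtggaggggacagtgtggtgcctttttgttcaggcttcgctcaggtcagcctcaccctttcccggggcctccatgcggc
NUP98 (chr11:3797547-3797796, minus strand, the first of 2 listed starts): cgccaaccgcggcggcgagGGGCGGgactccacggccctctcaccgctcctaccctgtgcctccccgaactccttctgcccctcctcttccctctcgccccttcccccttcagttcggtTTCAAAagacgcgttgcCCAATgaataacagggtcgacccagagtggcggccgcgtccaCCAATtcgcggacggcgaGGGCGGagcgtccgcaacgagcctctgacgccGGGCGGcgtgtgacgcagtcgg
The NUP37 window held a CHR match starting 66 bases, a CCAAT match 39 bases and an ETS core match 14 bases before the start. The NUP205 window held a CHR match at 165 bases and a CCAAT match at 148 bases. NUP98 held a CHR match at 131 bases, CCAAT matches at 114 and 72 bases and GC boxes at 231, 54 and 22 bases. The level of NUP98 did not pass the test. NUP107 held a CCAAT match at 138 bases, overlapping NRF1 core matches at 84 and 82 bases and an ETS core match at 10 bases. NUP155 held a single match, a GC box at 238 bases.

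Across the nuclear pore genes the letters were spread unevenly, in numbers too small to rank. CCAAT was in 9 of the 20 matched promoters of genes that fell, in 1 of the 8 of the other tested genes, and in 33.0% of all 27305 promoter windows. The CHR letters were in 5 of 20, 1 of 8 and 13.6% of all windows. The ETS core was in 8 of 20, 4 of 8 and 8.82% of all windows, and the GC box in 10 of 20, 3 of 8 and 42.3%. The 4 with the ETS core include POM121 and its near-identical copy POM121C, whose windows are nearly the same. The windows of all genes include those of genes that were not tested. The E2F core was in 3 of 20 (NUP62CL, NUP210 and NUP160), 0 of 8 and 5.59%, the E-box in 2 of 20, 0 of 8 and 6.49%, and the NRF1 core in 2 of 20, 1 of 8 and 2.81%. A match describes the letters of the window and not the binding of a factor.

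Other pore proteins that the name rule did not take in were mixed. NUPL1, the older symbol of the channel protein NUP58, fell with a log2 fold change of -0.25. NUPL2 (NUP42) and GLE1, which meet at the cytoplasmic face to release exported messenger RNA, rose by 0.36 and 0.65. TMEM33, a reticulum membrane protein found with the pore, was not called at 0.04.

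Genes for the carriers that use the pore and for other parts of transport and the envelope are given beside the shares of all genes tested, of which 29.9% fell and 26.6% rose. Most genes of these lists had a mean of at least 10 CPM, and of all genes at that level 35.4% fell. Of 26 importins and exportins, 12 fell (46.2%) and 5 rose (19.2%), with a median log2 fold change of -0.11. The lowest were KPNB1 (importin beta, -0.74), IPO8 (-0.68) and KPNA5 (-0.66), and the highest KPNA7 (1.82, from 1.39 to 4.85 CPM), KPNA4 (0.33) and RANBP17 (0.31). In the Ran cycle 4 of 7 genes rose and 1 fell, with a median of 0.21, a list too short for its shares to be read against those of all genes. NUTF2, the import carrier of Ran, RANBP1 and RAN itself rose by 0.33, 0.30 and 0.23, while RCC1, the chromatin-bound exchange factor of Ran, was at -0.32.

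Among 21 tested messenger RNA export factors 8 fell (38.1%) and 4 rose (19.0%), near the 29.9% and 26.6% of all genes, with a median of -0.08. DDX39A (-0.76), THOC3 (-0.62) and DDX19B (-0.52) were lowest, and DDX39B (0.59), THOC6 (0.58) and DDX19A (0.36) highest. DDX39B was measured at under 1 CPM in both groups, at 0.592 and 0.902 CPM on average. Of 14 tested lamina and envelope genes 8 fell (57.1%, against 29.9% of all genes) and 2 rose (14.3%, against 26.6%), with a median of -0.20. Among all genes with a mean of at least 10 CPM, 35.4% fell. The giant linker SYNE2 (-1.07), lamin B1 (LMNB1, -0.84) and TMPO (-0.69) were lowest, and BANF1 (0.66) and TOR1A (0.23) rose.

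**Figure D5:**
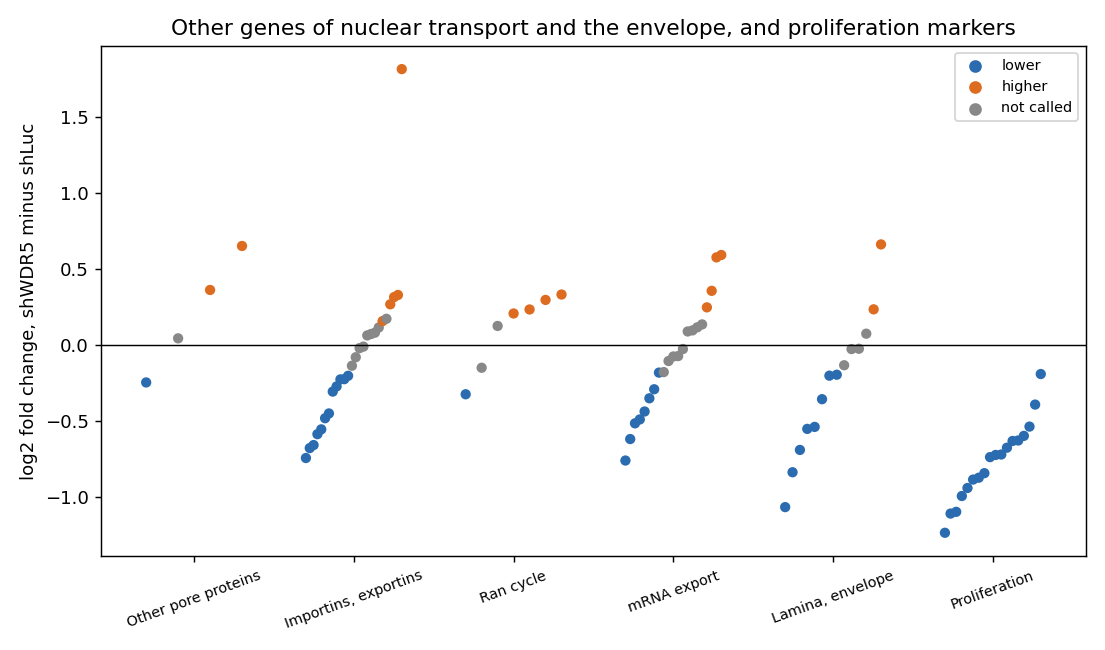
Log2 fold change (shWDR5 minus shLuc) of every tested gene of 6 lists: other pore proteins, importins and exportins, the Ran cycle, messenger RNA export, lamina and envelope, and proliferation markers, each point a gene coloured by call. The proliferation markers all lie below 0, 4 of the 7 Ran cycle genes lie above it as called genes, and the other lists hold points on both sides.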

How the data were processed

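Poly-A RNA-seq counts were deposited for 6 MCF10DCIS samples, 3 shLuc and 3 shWDR5, grouped by their titles. The deposited values are raw counts of reads per gene that the authors made, per the submitters' processing notes, with TopHat2 2.1.0 and featureCounts on hg19 (GRCh37). The annotation and the handling of strand and multiply mapped reads are not given in the sources used here. A second table holds the authors' edgeR 3.2.2 fold changes and p-values and was not used.

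All genes were fitted in R 4.3.3 with edgeR 4.0.16 (filterByExpr with a minimum count of 10, TMM scaling, quasi-likelihood test of group, no block), with Benjamini-Hochberg adjustment over all genes tested and calls at 0.05. CPM and RPKM were computed from the counts with TMM-scaled library sizes, and RPKM also from the deposited gene lengths. Fits were checked on simulated counts in which a small set of genes changed, equally up and down. That check does not cover scaling where a large share of genes moves. Intervals are 95% and errors are SD or SE as named. Exon overlaps were read from the exon coordinates of the count table.

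The nuclear pore genes and the other lists were chosen with earlier results of these data known. All tested members are named. Values per sample are given for WDR5, the up to 6 called members with the largest change in each direction and the 3 highest and 3 lowest by RPKM. Of other lists, up to 3 called genes per direction are named. 1 epithelial marker is not reported here. The alternatives were DESeq2 1.42.0 (size factors and the Wald test), other scalings, other filters on low counts, a replicate block, leaving out each library and a log2 fold limit of 0.6.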

Additional observations from a re-analysis of the deposited data

How the results depend on the processing

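The direction of every called nuclear pore gene was kept under the 13 alternative fits. Of 403 results, 1 for each of the 31 genes and each alternative, 381 kept their side of the threshold, 21 lost their call and 1 gained one. The sign changed only for NUP98, RANBP2, RAE1 and SEC13, which were not called, under 1 or more of these alternatives (SEC13 from 0.01 to -0.05 and NUP98 from 0.02 to -0.04 with library size alone, for example). The 5 genes whose call moved were NUP214, NUP50, NUP50-AS1, POM121 and AHCTF1, the last reaching adjusted p = 0.0370 (log2 fold change -0.17, edgeR) with scaling by library size alone. The count of genes that fell was 22, ran from 19 to 21 when a library was left out, and was 20 with the DESeq2 Wald test, which did not call NUP214 or NUP50-AS1. The count that rose was 1, ran from 0 to 1 when a library was left out (0 without shLuc replicate 3, shWDR5 replicate 1 or shWDR5 replicate 2) and was 0 with library size alone. With a log2 fold change of at least 0.6 required as well, 6 nuclear pore genes were lower and 0 higher. The same limit left 1939 genes lower and 1751 higher in all, 3 importins and exportins lower and 1 higher, 0 Ran cycle genes in either direction, 2 messenger RNA export factors lower and 0 higher, and 3 lamina and envelope genes lower and 1 higher. The median of the nuclear pore genes ran from -0.42 with library size alone, where that of all genes was -0.07, to -0.31 without shWDR5 replicate 1. With a replicate block 22 fell and 1 rose, and no call of a nuclear pore gene changed. Over all genes the block gave 5511 lower and 4901 higher, against 4821 and 4291 without it. Deviations of same-numbered samples correlated at 0.636, 0.0815 and 0.242 over genes. The 0.636 of replicate 1 was the highest of any pair of a shLuc and a shWDR5 sample. However, shLuc replicate 2 correlated better with shWDR5 replicate 3 (0.440), and the labels do not say that the numbers pair samples.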
